A study of Homo sapiens with 18 samples.

Results

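The 9 genes described here mark the intestinal epithelium: the transcription factors CDX1, CDX2 and HNF4A, the brush-border protein VIL1, the cell-surface proteins CDH17, EPCAM and GPA33, the lectin LGALS4 and the secreted peptide TFF3. They were taken from the deposited count tables by symbol, and all 9 were found among the 40916 symbols listed. Polyadenylated RNA was counted in 18 libraries of 2 human epithelial lines and their mixture. MCF10A, a mammary epithelial line that is not transformed, expressed H2B-GFP, a fluorescent histone, and was grown in F12:DMEM with horse serum, EGF, hydrocortisone, cholera toxin and insulin. HCT116, derived from a colorectal carcinoma, carried no label, was described as p53-null and was grown in McCoy's medium with fetal bovine serum. All media held penicillin and streptomycin, and the medium of the mixture is not given. The last kind of culture, called mixed, was described as set up from the 2 lines at 50% each. All 3 kinds were harvested without irradiation (NIR) or after 10 Gy (IR), which gave 6 groups of 3 biological replicates. Harvest was on day 2 by the titles of the samples but 72 h after irradiation by the text of the series.

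Intestinal epithelial cells are specified by the homeobox factors CDX1 and CDX2, which act with HNF4A on genes of the absorptive and secretory cells. Those cells carry a brush border bundled by villin, cadherin-17 and GPA33 at the lateral membrane, galectin-4 in lipid rafts, and, in goblet cells, the trefoil peptide TFF3. Colorectal carcinoma lines keep this program to very different degrees. EPCAM is an adhesion molecule of simple epithelia in general, so it is the least specific of the 9.

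The libraries held 25737818 to 40839835 counts. Levels are CPM, a gene's share of its library's counts times 1000000, as mean ± SD over the 3 libraries of a group, and a gene with 3 counts over a whole group would lie at 0.0275 to 0.0338 CPM. The labels were checked with 10 basal mammary genes, all of which had counts in MCF10A. Their summed level was 11279 to 12001 CPM in MCF10A NIR, 974 to 1059 CPM in HCT116 NIR and 972 to 1091 CPM in Mixed NIR. After irradiation it was 20684 to 21237 CPM in MCF10A, 1546 to 1739 CPM in HCT116 and 1813 to 2099 CPM in the mixture. The mixed cultures were thus at 8.96% ± 0.524 and 9.14% ± 0.749 of the MCF10A level, beside 8.82% ± 0.375 and 7.84% ± 0.462 for HCT116 alone. KRT5, a basal keratin, was at 2883 CPM in MCF10A NIR, 0.117 CPM in HCT116 NIR and 0.724 CPM in Mixed NIR, and TP63, the basal transcription factor, had no counts in HCT116 NIR. By these genes the mixed libraries lay next to HCT116 and far from the middle that their described composition would give. In bulk libraries, fewer cells of a line and less RNA per cell cannot be told apart.

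3 promoters are shown, that of CDX2, that of GPA33, which differed between the lines as CDX2 did, and that of LGALS4, which did not. Each is the 250 bases before the transcript start in the RefSeq promoter table (GRCh38.p14), which held 4 of the 9 genes, and all 3 lie inside the gene's span in the GENCODE annotation. The sequences run 5′ to 3′ along the gene's strand, which is the minus strand for all 3. Capitals mark TTTAT or ATAAA, the 2 strands of the core that CDX factors are known to bind.
CDX2, chr13:27969316-27969565: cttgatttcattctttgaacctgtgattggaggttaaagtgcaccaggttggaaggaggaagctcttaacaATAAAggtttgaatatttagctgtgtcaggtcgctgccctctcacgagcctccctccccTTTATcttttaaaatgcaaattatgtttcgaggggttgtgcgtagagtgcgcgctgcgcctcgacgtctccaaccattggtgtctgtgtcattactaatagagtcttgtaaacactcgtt
GPA33, chr1:167090378-167090627: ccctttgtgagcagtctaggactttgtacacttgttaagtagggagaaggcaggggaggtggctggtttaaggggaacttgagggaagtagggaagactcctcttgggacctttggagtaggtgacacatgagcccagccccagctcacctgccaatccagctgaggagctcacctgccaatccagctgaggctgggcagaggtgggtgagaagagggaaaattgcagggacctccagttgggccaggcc
LGALS4, chr19:38812946-38813195: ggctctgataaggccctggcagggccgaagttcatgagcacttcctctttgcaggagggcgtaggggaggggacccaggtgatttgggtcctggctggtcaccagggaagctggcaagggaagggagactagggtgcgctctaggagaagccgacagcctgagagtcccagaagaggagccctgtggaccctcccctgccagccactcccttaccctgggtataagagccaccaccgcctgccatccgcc
The CDX2 promoter held 2 core matches, and those of GPA33 and LGALS4 and both listed promoters of HNF4A held 0. This core is short, and 32.7% of 35116 promoters of the same length held it on either strand. CAAAGTCCA, an HNF4A consensus found in 0.325% of promoters on either strand, occurred in none of these 5. GTTAAT, an arm of the palindrome bound by HNF1 factors, found in 6.23% of promoters on either strand, occurred 2 times in 1 of the HNF4A promoters and in none of the other 4. GC content was 45.2% for CDX2, 56.8% for GPA33 and 63.2% for LGALS4.

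In the GENCODE release 29 annotation (GRCh38), CDX2 lies on chromosome 13 (27962137-27971139, minus strand), CDX1 on chromosome 5 (150166795-150184558, plus) and HNF4A on chromosome 20 (44355700-44434596, plus). VIL1 (218419092-218453295, plus) and EPCAM (47345158-47387601, plus) are on chromosome 2. GPA33 is on chromosome 1 (167052836-167166479, minus), LGALS4 on chromosome 19 (38801671-38813364, minus) and TFF3 on chromosome 21 (42311667-42315651, minus). The exons of VIL1 share 3045 bases with USP37 on the opposite strand, and whether the counting used strand is not given in the sources used here, so the low VIL1 counts are uncertain.

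Only a part of the set was expressed in HCT116. At a mean of 1 CPM or more stood EPCAM and CDX2 in HCT116 NIR, those 2 and HNF4A in HCT116 IR, EPCAM and CDX2 in both mixed groups, and EPCAM in both MCF10A groups. CDX1 had 2 counts in 1 Mixed IR library and none in the other 17. TFF3 had none in any library, where 3 counts over the 18 libraries would be 0.00510 CPM and the 95% Poisson upper limit is 0.00627 CPM. CDH17, GPA33, VIL1 and LGALS4 stayed under 1 CPM in every library.

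**Figure D1:**
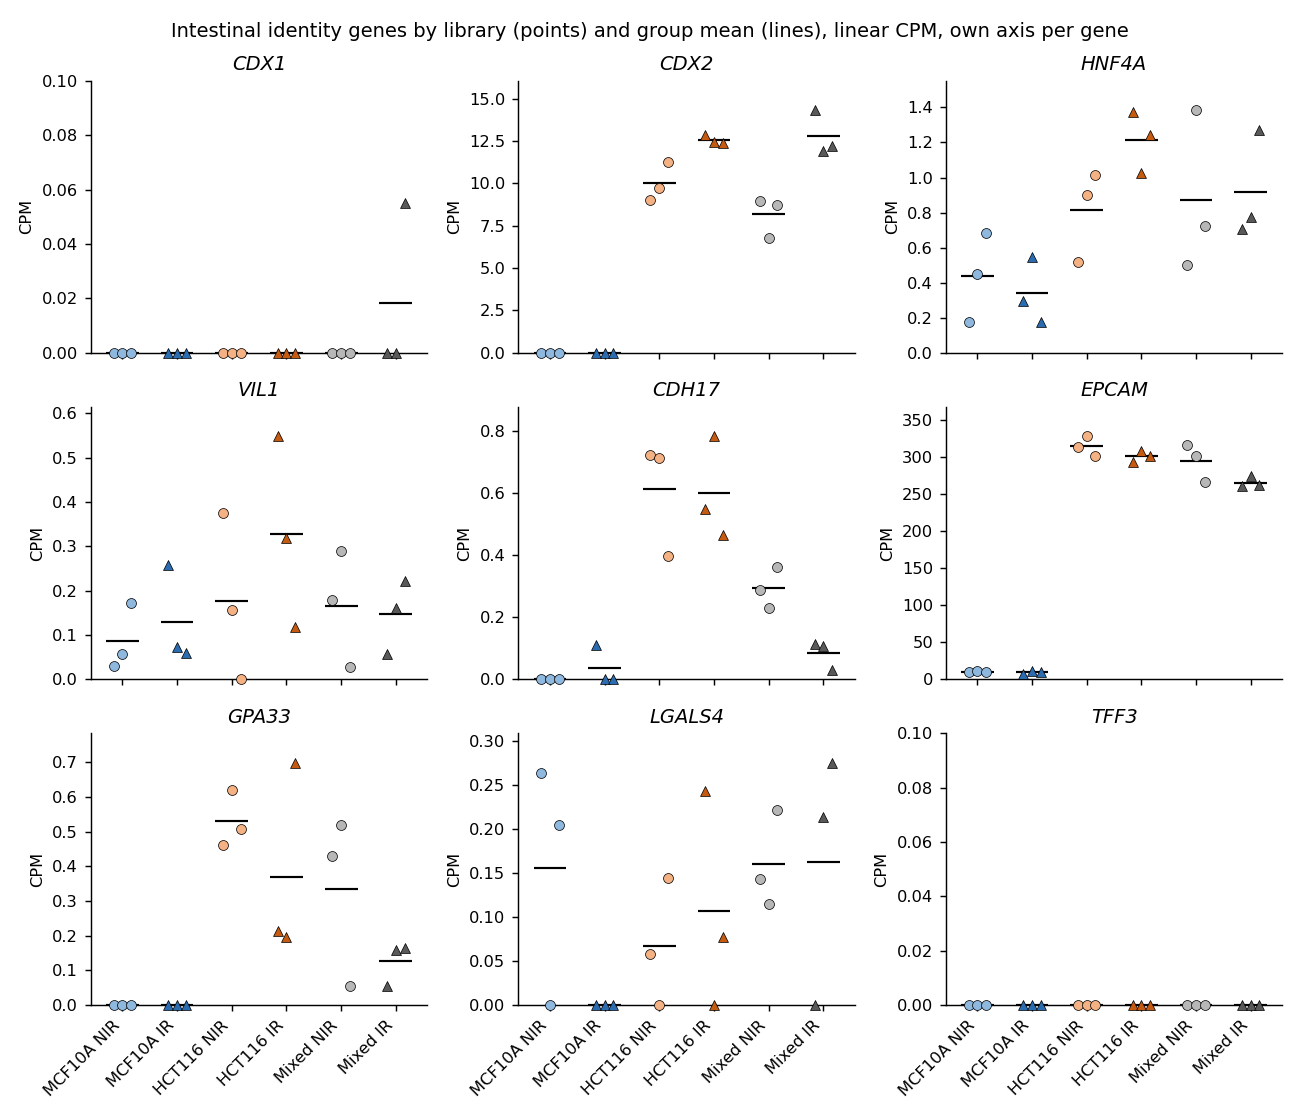
CPM of the 9 intestinal identity genes (vertical axis, linear, own scale per gene) in each library (points) of the 6 groups (horizontal axis), with group means as lines. EPCAM and CDX2 stood apart between MCF10A and every group that holds HCT116, TFF3 was at 0 throughout, and VIL1 and LGALS4 overlapped between all neighbouring groups.

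CDX2, the homeobox factor that sets intestinal fate, was the clearest line-specific member. It had no counts in any of the 6 MCF10A libraries. In HCT116 NIR it was at 9.03, 9.73 and 11.3 CPM, a mean of 10.0 ± 1.14 CPM, and in HCT116 IR at 12.9, 12.5 and 12.4 CPM, a mean of 12.6 ± 0.264 CPM. Mixed NIR libraries had 8.98, 6.78 and 8.73 CPM (8.16 ± 1.21), and Mixed IR libraries 14.3, 11.9 and 12.2 CPM (12.8 ± 1.32). All 6 irradiated libraries with HCT116 cells lay above all 6 non-irradiated ones. In order of the means, Mixed IR and HCT116 IR overlapped, HCT116 NIR lay below both, and Mixed NIR lay below HCT116 NIR without overlap.

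HNF4A, the nuclear receptor of liver and gut epithelium, was low in both lines. The 3 libraries of MCF10A NIR had 0.176, 0.451 and 0.683 CPM and those of MCF10A IR 0.294, 0.547 and 0.176 CPM. In HCT116 it was at 0.521, 0.901 and 1.01 CPM without irradiation and at 1.37, 1.03 and 1.24 CPM after it. The mixed libraries had 0.501, 1.38 and 0.723 CPM (NIR) and 0.709, 0.775 and 1.27 CPM (IR). Neighbours in the order of the group means all overlapped, from 1.21 ± 0.173 CPM in HCT116 IR down to 0.339 ± 0.189 CPM in MCF10A IR. Only 29 to 119 counts per group stand behind these means.

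VIL1, the actin-bundling protein of microvilli, had 8 to 34 counts per group. Its group means ran from 0.0855 ± 0.0751 CPM in MCF10A NIR to 0.328 ± 0.216 CPM in HCT116 IR, and all neighbouring groups overlapped. 1 of the 3 HCT116 NIR libraries had no VIL1 count.

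EPCAM, the epithelial adhesion molecule, was the member with the highest level per length in every group. MCF10A NIR had 9.47, 11.2 and 8.98 CPM, and MCF10A IR 7.31, 10.2 and 9.47 CPM. HCT116 NIR had 314, 328 and 302 CPM, and HCT116 IR 293, 308 and 301 CPM. The mixed libraries had 316, 302 and 266 CPM without irradiation and 260.2, 274 and 262 CPM with it. All 12 libraries with HCT116 cells lay far above the 6 of MCF10A, and among the 4 groups with HCT116 the neighbours in the order of means overlapped. The means of those 4 groups were 315 ± 13.0, 301 ± 7.80, 295 ± 25.9 and 265 ± 7.37 CPM, for HCT116 NIR, HCT116 IR, Mixed NIR and Mixed IR.

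CDH17, the cadherin of the intestinal lateral membrane, had no counts in MCF10A NIR and 3 counts in 1 library of MCF10A IR. It was at 0.723, 0.715 and 0.398 CPM in HCT116 NIR and at 0.548, 0.784 and 0.466 CPM in HCT116 IR. Mixed NIR libraries had 0.286, 0.231 and 0.361 CPM, and Mixed IR libraries 0.113, 0.107 and 0.0276 CPM. Both mixed groups lay below both HCT116 groups without overlap, and Mixed IR lay below Mixed NIR without overlap. These levels rest on 59, 62, 29 and 9 counts per group, in the order HCT116 NIR, HCT116 IR, Mixed NIR and Mixed IR.

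GPA33, a surface glycoprotein of intestinal epithelium and a target of colorectal antibody trials, had no counts in any MCF10A library. HCT116 NIR had 0.463, 0.622 and 0.507 CPM, a mean of 0.530 ± 0.0819 CPM. HCT116 IR had 0.213, 0.196 and 0.699 CPM, Mixed NIR 0.429, 0.519 and 0.0556 CPM, and Mixed IR 0.0567, 0.160 and 0.166 CPM. The groups with HCT116 overlapped with their neighbours, and 1 high library in HCT116 IR and 1 low library in Mixed NIR set much of the spread.

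LGALS4, the galectin of enterocytes, did not separate the lines. Its means were 0.157 ± 0.139 CPM in MCF10A NIR, 0.0676 ± 0.0729 in HCT116 NIR, 0.107 ± 0.124 in HCT116 IR, 0.160 ± 0.0555 in Mixed NIR and 0.163 ± 0.145 in Mixed IR. MCF10A IR had no LGALS4 count. At 65 counts over the 18 libraries, all neighbours overlapped.

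Compared per length, over 36290 symbols matched to 1 GENCODE gene, the members spanned the whole range of transcripts. EPCAM in HCT116 NIR was at 125 ± 5.17 CPM per kb of exon and ranked 199 of 22414 genes with counts. CDX2 was at 2.43 ± 0.277 CPM per kb, with 56.9% of those genes lower. GPA33, CDH17 and HNF4A were at 0.166, 0.157 and 0.111 CPM per kb, with 25.7%, 25.2% and 21.6% of genes lower, and VIL1 and LGALS4 had 8.71% and 8.69% lower. In MCF10A NIR, EPCAM was at 3.92 ± 0.453 CPM per kb, above 63.1% of 20311 genes.

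The line comparison without irradiation asked which intestinal genes tell HCT116 from MCF10A. CDX2, CDH17, EPCAM and GPA33 were higher in HCT116 and none was lower. Of the 9 genes, 5 passed the filter on low counts and 4 of them were higher, where 38.7% of all 16568 genes tested were higher (edgeR quasi-likelihood test with Benjamini-Hochberg adjustment, adjusted p under 0.05). CDX2, CDH17 and GPA33 passed the filter only through their HCT116 counts, so a difference was bound to be found for them. EPCAM was higher by a log2 fold change of 4.79 (SE 0.0779, adjusted p 6.2e-19), a 31.9-fold ratio of means. CDX2 was at least 329-fold higher (adjusted p 1.2e-11), CDH17 at least 20.2-fold (3.0e-05) and GPA33 at least 17.5-fold (4.1e-05), against 3 counts over the 3 MCF10A libraries. If mates of a pair were counted separately, these bounds become 165-fold, 10.1-fold and 8.73-fold. HNF4A had a log2 fold change of 0.70 (95% interval -0.42 to 1.82, adjusted p 0.241), and its libraries overlapped.

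With all counts halved, only 2 members were higher, since CDH17 and GPA33 no longer passed the filter. Upper-quartile scaling moved the median log2 fold change of all genes from 0.05 to 0.25 and the share of called genes that were higher from 51.8% to 62.4%, and the 4 members stayed higher.

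Between the irradiated lines, EPCAM, CDX2, CDH17 and HNF4A were higher in HCT116. These 4 are the members that passed the filter, where 38.1% of 16932 genes tested were higher. CDX2, CDH17 and HNF4A passed it only through their HCT116 counts. A difference was thus bound to be found for CDX2 and CDH17 and was favoured for HNF4A, so nothing is read from the count of 4. EPCAM had a log2 fold change of 4.83 (SE 0.0786, adjusted p 2.5e-26, edgeR), and CDX2 was at least 371-fold higher, or 186-fold with halved counts (adjusted p 1.1e-16). CDH17 had 62 counts in HCT116 IR and 3 in MCF10A IR, all 3 in replicate 1, an 18.4-fold ratio of the pooled levels with a 95% counting interval of 6.02 to 91.8 (exact binomial). That interval covers counting error only, not the spread between libraries, and would be wider if mates of a pair were counted separately. The fitted log2 fold change of CDH17 (adjusted p 0.00036, edgeR) was 3.78, against 7.20 without MCF10A IR replicate 1, where MCF10A has no count. HNF4A had one of 1.62 (SE 0.505, adjusted p 0.0056, edgeR), and the 3 HCT116 libraries all lay above the 3 of MCF10A. GPA33, under the filter, had 33 counts in HCT116 IR and none in MCF10A IR, at least 10.9-fold higher, or 5.46-fold with halved counts. Library size alone as scaling moved the share of called genes that were higher from 50.9% to 62.4%.

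The other genes of the intestinal program, listed by function, were counted in the same fits. Brush-border genes were higher in HCT116 NIR for 12 of 13 tested, of 16 in the tables, with a median log2 fold change of 2.31 against 0.05 for all genes. Between the irradiated lines 10 of 14 were higher and 2 lower, MYO7B and PDZK1, with a median of 1.28 against 0.04, and 1 was lower without MCF10A IR replicate 1 or HCT116 IR replicate 3. USH1C, a scaffold of the links between microvilli, was at 23.6 ± 1.02 CPM in HCT116 NIR and without counts in MCF10A NIR, at least 776-fold higher, or 388-fold with halved counts. ESPN, an actin bundler, had a log2 fold change of 9.05 and EZR, which ties actin to the membrane, one of 2.43 (adjusted p 2.1e-16 and 1.7e-17, edgeR). VIL1 itself was under the filter in both line comparisons. Most of these lists hold genes that passed the filter through 1 line alone, so the counts describe presence as much as change.

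Of 14 genes of epithelial adhesion and junctions, 11 were tested between the non-irradiated lines, with 9 higher and 1 lower in HCT116 and a median log2 fold change of 2.25. CLDN4, a tight-junction claudin, was at 165 ± 10.5 CPM against 0.991 ± 0.326 CPM in MCF10A, and CLDN7, another claudin, at 85.9 ± 1.80 against 7.24 ± 1.19 CPM. Between the irradiated lines 8 of 11 were higher and 3 lower, and under upper-quartile scaling 1 was lower.

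Intestinal transcription factors were split between the lines. Of 18 listed besides the members, 13 were tested without irradiation, with 7 higher, 3 lower and 3 not called, and a median of 1.88 on the log2 scale. ELF3, an epithelial ETS factor, was at 89.9 ± 12.1 CPM in HCT116 and 1.36 ± 0.0251 CPM in MCF10A, and SOX9, a factor of crypt and Paneth cells, at 194 ± 19.0 against 6.91 ± 0.436 CPM. KLF5, a factor of proliferating crypts and of basal epithelia, was lower in HCT116, at 76.6 ± 4.03 against 253 ± 6.51 CPM (log2 fold change -1.92, adjusted p 2.6e-15, edgeR). HNF4G, the paralog of HNF4A and named here after its values were seen, was at 6.04 ± 0.661 CPM in HCT116 NIR and 0.644 ± 0.281 CPM in MCF10A NIR (log2 fold change 3.05, adjusted p 3.7e-08, edgeR). Between the irradiated lines 6 of these factors were higher and 6 lower.

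Genes of mature absorptive and secretory cells were mostly near 0, like CDX1 and TFF3. Of 21 absorptive genes, 6 were tested between the non-irradiated lines, with 5 higher and 1 lower in HCT116, and 7 had no counts in HCT116 NIR, among them FABP1, ALPI and SI. DPP4, a brush-border peptidase, was at 18.0 ± 3.33 CPM and without counts in MCF10A NIR, at least 593-fold higher, or 296-fold with halved counts, and CA2, a carbonic anhydrase, at 63.9 ± 4.24 against 4.10 ± 0.648 CPM. ANPEP, also a brush-border peptidase, was at 0.212 ± 0.169 CPM in HCT116 NIR and 1307 ± 27.3 CPM in MCF10A NIR. Of 22 secretory and mucin genes, 5 were tested, with 3 higher and 1 lower, and 10 had no counts in HCT116 NIR. MUC1, a mucin that breast epithelium also makes, was the lower one, at 2.16 ± 0.157 against 15.99 ± 3.09 CPM.

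Of 7 crypt stem cell genes, 3 were tested and 2 were higher in HCT116 NIR, PROM1, which encodes CD133, at 41.9 ± 5.57 CPM against no counts, and EPHB2, an ephrin receptor, with a log2 fold change of 0.88. Other galectins did not follow a line as a group, with 2 higher and 3 lower of 5 tested, and LGALS1, LGALS3 and LGALS8 were the 3 lower. Without HCT116 NIR replicate 2 or 3 or MCF10A NIR replicate 1, 1 galectin was higher. Markers of other endodermal tissues were few. Of 8 hepatocyte and 6 gastric genes, 1 each had a mean of 1 CPM or more in HCT116 NIR, where 2 of the 9 members did. The summed levels of these hepatocyte and gastric genes were 4.52 ± 0.0771 and 2.48 ± 0.328 CPM there. In MCF10A NIR they were 31.1 ± 3.50 and 1.36 ± 0.604 CPM.

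**Figure D2:**
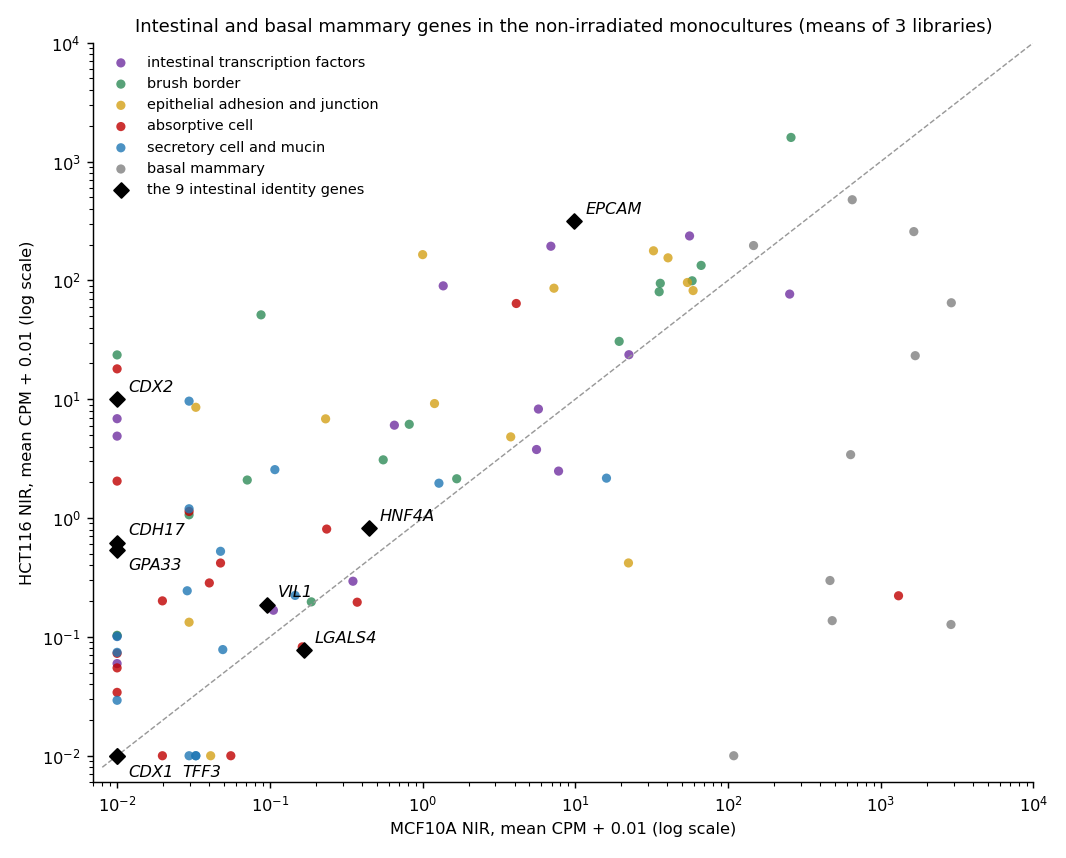
Mean CPM over 3 libraries in MCF10A NIR (horizontal axis) and HCT116 NIR (vertical axis), both logarithmic with 0.01 added, for the members (diamonds) and other listed genes (circles, coloured by list), with equality dashed. CDX2, CDH17 and GPA33 sit at the left edge without MCF10A counts, while the basal mammary genes lie mostly below the line.

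Irradiation of HCT116 asked whether the remaining intestinal program changed after 10 Gy. CDX2 was higher after irradiation, from 10.0 ± 1.14 to 12.6 ± 0.264 CPM, a log2 fold change of 0.34 (SE 0.126, 95% interval 0.08 to 0.60, adjusted p 0.028, edgeR). It was the only one called of 6 members tested, where 8846 of all 16857 genes tested were called in either direction and 25.3% of all were higher. This call was lost in 7 of 15 alternatives, among them DESeq2's Wald test (adjusted p 0.055) and each fit without 1 of HCT116 NIR replicates 1 and 2 and HCT116 IR replicates 1, 2 and 3 (0.051 to 0.133). EPCAM had a log2 fold change of -0.06 (95% interval -0.17 to 0.06), an interval that does not reach the CDX2 value. HNF4A had one of 0.59 (-0.29 to 1.47) although its libraries did not overlap, CDH17 -0.01 (-1.06 to 1.03), GPA33 -0.57 (-1.84 to 0.70) and VIL1 0.86 (-0.81 to 2.52). Each of these 4 intervals takes in a change of 1 log2 unit in at least 1 direction.

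Around the members, the same irradiation moved the listed genes in both directions, as it did over all genes. Of 16857 genes tested, 4269 rose and 4577 fell, so nothing is read from the counts of factors and brush-border genes below. Of 12 intestinal transcription factors tested, 3 rose, 2 fell and 7 were not called, and the list's median was -0.18 beside 0.01 over all genes tested. EHF, an epithelial ETS factor, rose from 236 ± 11.7 to 418 ± 24.6 CPM, and SOX9 from 194 ± 19.0 to 249 ± 10.1 CPM. Without HCT116 NIR replicate 2 or 3, 1 factor fell. Of 13 brush-border genes, 4 rose and 4 fell (2 without HCT116 NIR replicate 1 or 2), MISP and ESPN by log2 fold changes of 0.86 and 0.54 and EPS8, an actin regulator of microvilli, by -0.50. Of 11 adhesion genes, 5 rose and 1 fell, CEACAM1, a surface glycoprotein of the carcinoembryonic antigen family, from 4.81 ± 1.05 to 35.6 ± 4.04 CPM and CDH1, E-cadherin, from 155 ± 6.90 to 216 ± 5.66 CPM.

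Of 22 secretory genes 6 were tested, with 4 called higher and 1 lower, where 25.3% of 16857 genes tested were higher. The 6 had a median log2 fold change of 0.94, beside 0.01 over all genes tested. FCGBP, a goblet-cell mucus protein, rose from 9.62 ± 1.01 to 17.0 ± 1.08 CPM (log2 fold change 0.83, adjusted p 3.6e-06, edgeR). MUC2, the main goblet-cell mucin and named after its values were seen, rose from 0.515 ± 0.339 to 3.29 ± 0.350 CPM (log2 fold change 2.64, adjusted p 4.0e-06, edgeR). MUC2 was under the filter between the non-irradiated lines and passed it here through its HCT116 IR counts. This favoured a higher call, so nothing is read from the count of 4. TFF3 stayed without a count. The secretory gene that fell was MUC12, a membrane mucin, from 2.55 ± 0.151 to 0.801 ± 0.106 CPM (log2 fold change -1.67, adjusted p 0.00013, edgeR). KRT20, a keratin of differentiated enterocytes also named after its values were seen, rose from 1.13 ± 0.328 to 3.29 ± 0.584 CPM, and the absorptive genes DPP4 and CA2 fell by 0.48 and by 0.34 on the log2 scale. Among crypt genes CDCA7 fell from 101 ± 10.2 to 48.9 ± 0.482 CPM, and LGALS3 of the galectins rose from 44.8 ± 3.60 to 57.6 ± 3.43 CPM. Basal mammary genes moved with irradiation in HCT116 as well, with 7 of 9 tested higher, where 25.3% of 16857 genes tested were higher. KRT5 and KRT17, at 0.117 and 0.127 CPM in HCT116 NIR, passed the filter only through their HCT116 IR counts, which favoured a higher call. Nothing is read from the count of 7, and the part of these genes in the other changes was not tested.

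In MCF10A, 2 members were tested for irradiation and 0 were called, with 0 at an unadjusted p under 0.05 and 0 with DESeq2, where 55.4% of 15154 genes tested were called by edgeR. EPCAM went from 9.87 ± 1.14 to 8.99 ± 1.49 CPM, a log2 fold change of -0.16 (95% interval -0.44 to 0.13), and HNF4A had one of -0.39 (-1.65 to 0.87). With no filter on low counts 1 member was lower, LGALS4, which had 15 counts in MCF10A NIR and none in MCF10A IR. Adhesion genes around EPCAM moved in the same libraries. Of 9 tested, 7 rose and 0 fell, with a median log2 fold change of 0.88 against 0.003 for all genes. Of all 15154 genes tested, 3976 rose and 4419 fell. CDH1 rose from 40.4 ± 3.12 to 123 ± 6.53 CPM and CLDN7 from 7.24 ± 1.19 to 15.8 ± 3.37 CPM.

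The difference between the irradiation responses of HCT116 and MCF10A could be estimated for 3 members and 0 were called, with 0 at an unadjusted p under 0.05 and 0 with DESeq2, where 37.3% of 18179 genes were called by edgeR. EPCAM differed by 0.02 on the log2 scale (95% interval -0.22 to 0.27), HNF4A by 0.90 (-0.72 to 2.52) and VIL1 by 0.22 (-2.86 to 3.29), while the median of all genes was -0.10. For CDX2, CDH17 and GPA33 no such difference exists to be estimated, since at least 1 MCF10A group was at or under 3 counts.

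**Figure D3:**
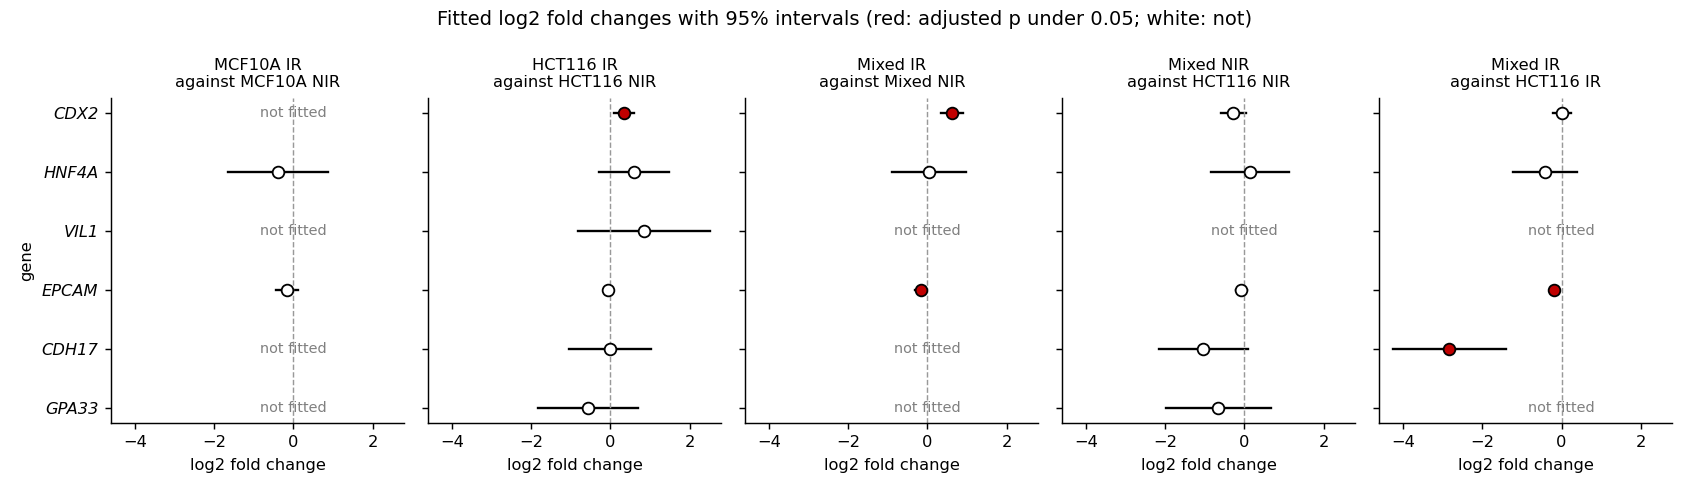
Log2 fold changes of 6 members (points) with 95% intervals (bars) from the edgeR fits of the irradiation and mixed-culture comparisons, 1 panel each, with filled points where the adjusted p was under 0.05. CDX2 was higher after irradiation in HCT116 and mixed cultures, and EPCAM and CDH17 were lower in Mixed IR than in HCT116 IR.

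Irradiation of the mixed cultures was compared in their own libraries. CDX2 rose from 8.16 ± 1.21 to 12.8 ± 1.32 CPM, a log2 fold change of 0.62 (SE 0.135, 95% interval 0.34 to 0.91, adjusted p 0.00057, edgeR), and kept its call in all 15 alternatives run. EPCAM was lower, from 295 ± 25.9 to 265 ± 7.37 CPM, a log2 fold change of -0.18 (SE 0.0607, adjusted p 0.020, edgeR), although its libraries overlapped. Of 3 members tested, 1 was thus higher and 1 lower, where 24.0% of 16906 genes tested were higher and 25.4% lower. The EPCAM call was lost in 6 of 15 alternatives, namely upper-quartile scaling (adjusted p 0.061), the fit of all 18 libraries (0.108) and the fits without 1 of Mixed NIR replicates 1 and 2 and Mixed IR replicates 1 and 3 (0.062 to 0.087). HNF4A had a log2 fold change of 0.04 (95% interval -0.90 to 0.97). CDH17, under the filter, went from 29 to 9 counts over 3 libraries each.

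The mixed cultures were then set against HCT116 alone, to ask how far their intestinal transcripts followed the HCT116 part. These comparisons share the HCT116 libraries with the irradiation comparison of HCT116, so the values are not independent of it. With 50% of each line and equal RNA per cell, a gene without counts in MCF10A would lie near 50% of its HCT116 level. CDX2 was at 81.6% ± 12.1 of the mean HCT116 level in Mixed NIR and at 102% ± 10.5 in Mixed IR, and EPCAM at 93.6% ± 8.22 and 88.2% ± 2.45. CDH17 was at 47.8% ± 10.7 and 13.8% ± 7.97, and GPA33 at 63.1% ± 46.3 and 34.5% ± 16.6. Without HCT116 IR replicate 3, GPA33 in Mixed IR was at 62.4%. HNF4A was at 107% ± 56.6 and 75.6% ± 25.2. In each treatment all 3 CDH17 ratios lay below all 3 CDX2 ratios, a difference that was not tested, and the SDs here cover the mixed libraries only.

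**Figure D4:**
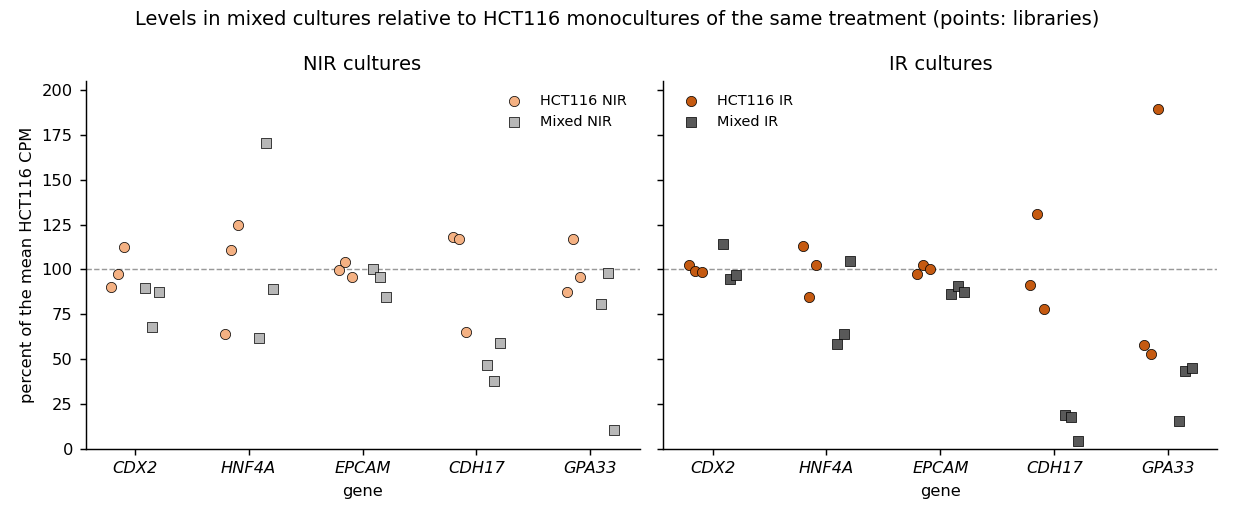
Level of 5 members in each HCT116 (circles) and mixed (squares) library as percent of the mean CPM of the 3 HCT116 libraries of the same treatment (vertical axis, 100% dashed), NIR on the left and IR on the right. In the mixed libraries CDX2 lay between 67.7% and 114%, EPCAM between 84.5% and 100.5% and CDH17 between 4.61% and 59.0%.

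In the non-irradiated pair, 5 members were tested and 0 called, with 0 at an unadjusted p under 0.05 and 0 with DESeq2, where 2.04% of 16455 genes were called by edgeR. The log2 fold changes of Mixed NIR against HCT116 NIR were -0.28 for CDX2 (95% interval -0.59 to 0.03), -0.08 for EPCAM (-0.22 to 0.06) and -1.04 for CDH17 (-2.17 to 0.08, adjusted p 0.388). The CDX2 and CDH17 libraries of the 2 groups did not overlap, but the nearest CDX2 libraries were at 8.98 and 9.03 CPM. How many of all genes did not overlap was not counted, so nothing is read from it. GPA33 had one of -0.66 (-1.98 to 0.66) and HNF4A one of 0.13 (-0.85 to 1.11).

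In the irradiated pair, CDH17 and EPCAM were lower in the mixture. CDH17 was at 0.0826 ± 0.0478 CPM against 0.599 ± 0.165 CPM, a log2 fold change of -2.83 (SE 0.697, 95% interval -4.26 to -1.40, adjusted p 0.0083, edgeR). EPCAM was at 265 ± 7.37 against 301 ± 7.80 CPM, a log2 fold change of -0.19 (SE 0.0488, adjusted p 0.011, edgeR), and neither gene's libraries overlapped. These were 2 of 4 members tested, where 3.48% of 17137 genes tested were lower. CDH17 passed the filter only through its HCT116 IR counts, which favoured a lower call, so nothing is read from the count of 2. The CDH17 call was lost without HCT116 IR replicate 2 (adjusted p 0.068) and without Mixed IR replicate 3 (0.082), with halved counts CDH17 was under the filter, and DESeq2 gave it no adjusted p, so that DESeq2 had 1 member lower. The EPCAM call was lost without the same libraries (0.056 and 0.087) and in the fit of all 18 (0.181). CDX2 had a log2 fold change of 0.02 (95% interval -0.22 to 0.25) and HNF4A one of -0.41 (-1.22 to 0.40).

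The test of the irradiation response itself, mixed minus HCT116, called 0 of 6 members, with 0 at an unadjusted p under 0.05 and 0 with DESeq2, where 0.83% of 18072 genes were called by edgeR. CDX2 differed by 0.30 on the log2 scale (95% interval -0.08 to 0.68), CDH17 by -1.78 (-3.64 to 0.08) and EPCAM by -0.11 (-0.28 to 0.06). A larger rise of CDX2 in the mixture than in HCT116 alone was therefore not shown, nor a response of CDH17 particular to the mixture.

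Some adhesion genes other than EPCAM, which was called lower in the irradiated pair only, were lower in the mixture. The others were not called. Of 11 tested, 4 were lower and 0 higher in Mixed NIR than in HCT116 NIR, where 189 of 16455 genes tested were lower. The 11 had a median log2 fold change of -0.24 against -0.004 for all genes. DESeq2 had 7 lower, and with a library left out there were 1 (without HCT116 NIR replicate 3 or Mixed NIR replicate 1), 2 (without HCT116 NIR replicate 2 or Mixed NIR replicate 2 or 3) or 3. CLDN4 was at 92.4 ± 11.3 against 165 ± 10.5 CPM (log2 fold change -0.82, SE 0.0807, adjusted p 1.2e-05, edgeR), CLDN7 at 68.7 ± 3.81 against 85.9 ± 1.80 CPM and CDH1 at 127 ± 8.44 against 155 ± 6.90 CPM. In the irradiated pair 6 of 11 were lower and 0 higher, where 3.48% of 17137 genes tested were lower. Among the 6 were CEACAM1 by -0.85, CLDN4 by -0.47 and ST14, a membrane protease, by -0.34 on the log2 scale. ELF3 and EHF were the 2 intestinal factors lower in both pairs. In the non-irradiated pair 0 factors were lower without HCT116 NIR replicate 2 or 3 or Mixed NIR replicate 1, and 1 without Mixed NIR replicate 3 and with DESeq2. In the irradiated pair 1 was lower without Mixed IR replicate 2. Brush-border genes were called for 0 of 13 in the non-irradiated pair and for 2 of 13 in the irradiated one, EPS8 higher and EZR lower. Basal mammary genes moved the other way, with 5 of 10 higher and 1 lower in each pair. Over all genes tested, 146 of 16455 were higher in the non-irradiated pair and 871 of 17137 in the irradiated one. TP63 in both pairs, and KRT17 in the non-irradiated pair, passed the filter only through the mixed libraries, which favoured a higher call. Nothing is read from the counts of 5, and the part of basal mammary genes in the other differences was not tested.

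Over the 12 libraries with HCT116 cells, the genes whose log2(CPM + 1) followed the members most closely were sought among 9872 genes with a mean of at least 10 CPM. For CDX2 they were ZNHIT1 (Pearson r 0.96) and EHD4 (0.95), for EPCAM CLK1 (0.91) and SNX5 (0.88), and for HNF4A ZNF581 (0.82) and FLOT2 (0.81). ZNHIT1 had the same order of groups as CDX2 apart from HCT116 IR and Mixed IR, at 53.7 ± 4.14, 65.6 ± 0.511, 47.4 ± 4.72 and 63.1 ± 2.34 CPM in HCT116 NIR, HCT116 IR, Mixed NIR and Mixed IR. These correlations are the highest of many over libraries that share groups and are given as a description.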

How the data were processed

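The authors deposited 1 table of raw counts per gene symbol for each of 18 libraries. fastp, STAR and featureCounts are named, with GRCh38, per the submitters' processing notes. Their settings and the annotation are not given in the sources used here. The libraries were made with a stranded poly(A) kit, per the labels. Of the values from 1 to 10, 68.3% were even, so fits with halved counts were added among the alternatives. Libraries held 25737818 to 40839835 counts.

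Comparisons used edgeR 4.0.16 (R 4.3.3) on the whole table: TMM scaling, filterByExpr, the 2-sided quasi-likelihood test, Benjamini-Hochberg adjustment and a threshold of 0.05, with only the groups compared in a fit. The scripts were tested on simulated data. Standard errors come from the F statistic and the log2 fold change. Levels are CPM. A fold against a group without counts is a bound, computed with 3 counts for that whole group, and covers counting error only. Lengths and positions are from GENCODE release 29, promoters from RefSeq.

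The 9 genes and all lists were chosen with earlier results of these data known. All members are given in each comparison. List genes were named by rule: up to 3 per list with the largest log2 fold change among those called, at 10 CPM or more in the higher group and without overlap, in the line comparison without irradiation and in HCT116 irradiation. The same rule was extended to the other comparisons after their values were seen. Nearest genes were the 2 with the highest Pearson r. Transcripts of the gene behind the p53-null description, and the values of 1 gene that is counted in its list, are not reported here.

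Alternatives were other scalings, DESeq2 1.42.0, no filter, halved counts, leaving out abundant genes, 1 fit of all libraries, a replicate block and leaving out each library. Deviations of same-number libraries had correlations of -0.043 to 0.109 over 15 pairs of groups. The highest was between HCT116 NIR and Mixed NIR, at 0.0566, 0.00513 and 0.109 for replicates 1, 2 and 3. Within groups, libraries differed by more than counting error, so none was counted as a copy. The labels call the replicates biological without naming their cultures, so p-values measure the spread between these libraries.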

Additional observations from a re-analysis of the deposited data

How the results depend on the processing

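Across the alternatives, the calls of CDX2 and EPCAM between the lines were kept in all 15 run for each treatment, and the CDX2 rise in the mixture in all 15. CDH17, GPA33, VIL1, LGALS4 and HNF4A rest on 0 to 119 counts per group, which limits their precision. The line calls of CDH17 (14 alternatives per treatment), GPA33 (14) and HNF4A after irradiation (15) were kept in all that could be run. CDX2, CDH17, GPA33 and HNF4A passed the filter of those fits only through their HCT116 counts, so keeping their line calls adds no support. The calls lost included CDX2 in HCT116 (936 and 1249 counts) and EPCAM in the mixture (28865 and 28927). If mates were counted singly, these counts are too high.

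Members called higher in HCT116 NIR than in MCF10A NIR numbered 2 with halved counts, against 4. Without a filter, 1 member was lower in irradiated MCF10A, against 0. Members higher in irradiated HCT116 numbered 0 with DESeq2 and in the fit of all 18 libraries, against 1, and 0 to 1 with a library left out. Members lower in the irradiated mixture numbered 0 with upper-quartile factors and in the fit of all 18, against 1, and 0 to 1 with a library left out. Members lower in Mixed IR than in HCT116 IR numbered 1 with DESeq2, with halved counts and in the fit of all 18, against 2, and 0 to 2 with a library left out.

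Of all genes, 335 were called between Mixed NIR and HCT116 NIR, against 526 with DESeq2, 671 without a filter, 768 in the fit of all 18 and 145 to 313 with a library left out. Between Mixed IR and HCT116 IR 1467 were called, and 866 to 1312 with a library left out. For the response of the mixture minus that of HCT116 the number was 150, against 297 with DESeq2, 336 without a filter and 64 to 197 with a library left out. With halved counts and no filter, a different number of genes is tested; for the other settings the cause was not tested.

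With the replicate number as a block, 716 genes were called between Mixed NIR and HCT116 NIR and 2220 between Mixed IR and HCT116 IR, and the members' calls were the same as without the block in all 9 comparisons. The numbers are not stated to pair libraries, and 0 of 15 pairs of groups had every same-number correlation over 0.1.

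Members that were not called changed sign in 18 fits, all with an adjusted p-value of at least 0.667. CDH17 in irradiated HCT116 was at 0.00013 with upper-quartile factors and 0.00027 in the fit of all 18. The other 16 fits each left out a library, with ranges of the log2 fold change given here. The range was -0.27 to 0.13 for CDH17 in irradiated HCT116, -0.92 to 0.062 for HNF4A in irradiated MCF10A and -0.27 to 0.54 for HNF4A in the irradiated mixture. For the response of HCT116 minus that of MCF10A it was -0.67 to 1.34 for VIL1 and -0.083 to 0.22 for EPCAM. It was -0.38 to 0.40 for HNF4A in Mixed NIR against HCT116 NIR and -0.077 to 0.067 for CDX2 in Mixed IR against HCT116 IR.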
